A study of Homo sapiens with 6 samples.

Results

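Amino acids enter cells through transporters of the plasma membrane, and 10 genes of this kind are described here in the established human neuroblastoma line SH-SY5Y: SLC7A5, SLC3A2, SLC43A1, SLC7A6, SLC7A1, SLC38A1, SLC38A2, SLC1A5, SLC1A4 and SLC6A9. They were followed through every probe set of the array whose annotation names exactly 1 gene, that gene being one of the 10, which gave 41 probe sets of 49293 that are not array controls. None of the probe sets annotated to several genes held one of the 10, and at gene level they were 10 of 18132 genes. The arrays were one-colour Affymetrix expression arrays, 3 of cells given endosulfan at 3 µM for 24 h and 3 of control cells, all grown in MEM and F12 medium with fetal bovine serum. Endosulfan, an organochlorine insecticide, is known as a blocker of the chloride channels that GABA opens, and the labels give its dose as a fraction of the LC50. The labels do not say what control cells were given, and the replicates are called biological with no culture, passage or day named, so the p-values measure the spread between these 6 samples. The line is a subclone of the SK-N-SH line. As a rough check of the label only, since array levels also depend on the probes, 9 of 11 adrenergic neuroblastoma markers measured ranked above the 90th percentile of all genes, as did 1 of 6 mesenchymal, 0 of 4 epithelial, 0 of 3 haematopoietic, 0 of 4 endothelial and 0 of 2 glial markers. No call above background was made, so no marker can be called absent.

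Plasma membrane transporters differ in which amino acids they carry and in what drives them. SLC7A5 (LAT1) is the light chain and SLC3A2 (4F2hc, CD98) the heavy chain of a heterodimer that exchanges intracellular glutamine for leucine and other large neutral amino acids, and the leucine it brings in is sensed by mTORC1. The SLC38 and SLC1A5 carriers take up glutamine and other small neutral amino acids with sodium, SLC7A1 takes up arginine and lysine, and SLC6A9 takes up glycine and ends glycine signalling in nervous tissue. Several of these genes are known targets of ATF4, a transcription factor that is made when amino acids are short or proteins misfold, and of MYC proteins.

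The promoter windows of the 10 genes are shown first, because ATF4 and MYC proteins bind known short motifs. RefSeq windows of assembly GRCh38.p14, from 250 bases before to 50 after each annotated start, were matched for all 10 genes, with 17 windows in all. They were searched on both strands for TGATGNAA, the C/EBP-ATF response element that ATF4 binds, for TGACGTCA, the cAMP response element, and for CACGTG, the E-box of MYC proteins. TGATGNAA stood in 5 windows, of SLC3A2, SLC1A5, SLC7A1, SLC38A1 and SLC1A4, that is in 5 of the 10 genes, whereas 3.62% of all 35116 windows and 4.46% of all genes with a window held it. CACGTG stood in 3 windows, of SLC7A5, SLC1A5 and SLC43A1, against 7.26% of all windows and 8.77% of genes. TGACGTCA stood in none of the 17 windows, against 1.85% of all. The matches are given below with up to 20 bases on either side, on the gene's strand 5′ to 3′, the motif in capitals. A match of letters describes the window and shows no binding.
SLC3A2, chr11:62881716-62881748, + strand: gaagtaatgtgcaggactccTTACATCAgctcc
SLC1A5, chr19:46784884-46784931, - strand: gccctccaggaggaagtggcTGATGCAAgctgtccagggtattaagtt
SLC7A1, chr13:29595654-29595701, - strand: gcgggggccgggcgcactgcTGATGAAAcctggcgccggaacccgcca
SLC38A1, chr12:46266493-46266540, - strand: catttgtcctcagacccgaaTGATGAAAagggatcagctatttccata
SLC1A4, chr2:64989372-64989419, + strand: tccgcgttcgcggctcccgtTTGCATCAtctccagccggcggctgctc
SLC7A5, chr16:87869612-87869657, - strand: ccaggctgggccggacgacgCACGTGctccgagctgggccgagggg
SLC1A5, chr19:46787318-46787363, - strand: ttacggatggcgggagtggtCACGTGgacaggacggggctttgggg
SLC43A1, chr11:57515789-57515834, - strand: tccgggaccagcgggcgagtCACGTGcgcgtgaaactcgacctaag

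The whole windows of SLC38A1, the gene with the largest difference among the 10, and of SLC7A5 are printed for context, again with motifs in capitals. The SLC38A1 window that holds the ATF motif has a GC content of 43.3%, and that of SLC7A5 one of 80.3%.
SLC38A1, chr12:46266467-46266766, - strand: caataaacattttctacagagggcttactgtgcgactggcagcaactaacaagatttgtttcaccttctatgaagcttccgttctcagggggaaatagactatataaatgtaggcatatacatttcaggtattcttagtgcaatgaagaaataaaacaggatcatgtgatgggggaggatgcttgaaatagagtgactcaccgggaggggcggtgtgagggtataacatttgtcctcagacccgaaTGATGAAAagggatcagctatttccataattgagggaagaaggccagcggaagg
SLC7A5, chr16:87869458-87869757, - strand: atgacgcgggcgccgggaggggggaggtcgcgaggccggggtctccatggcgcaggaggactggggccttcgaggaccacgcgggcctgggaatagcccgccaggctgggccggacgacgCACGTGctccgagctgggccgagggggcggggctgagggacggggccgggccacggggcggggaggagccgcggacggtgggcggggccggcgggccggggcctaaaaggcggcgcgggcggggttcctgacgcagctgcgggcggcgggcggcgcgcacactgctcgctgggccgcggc

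Values are on the log2 scale of RMA, which subtracts background, gives all arrays the same quantiles and combines the probes of a set, so 1 unit is a doubling. Levels of different probe sets are not comparable, so the transporters are set side by side only by their differences. In the array maker's naming the letter s in a probe set's name marks probes that match transcripts of more than 1 gene, and x marks some probes that resemble other sequences. Of the 41, 5 carry s and 8 carry x, and what those measure is less certain. The bacterial poly-A transcripts spiked into the RNA before labelling averaged 7.81, 7.73 and 8.80 in endosulfan arrays 1 to 3, against 6.13, 7.73 and 5.84 in control arrays 1 to 3 (log2). Their means were 8.11 ± 0.60 and 6.57 ± 1.02 (SD, n = 3 each), with a two-sided exact permutation p of 0.2, where 0.1 is the smallest that 3 arrays against 3 can give. Control 2 was thus level with endosulfan 1 and 2, so 2 further values are given beside many of the results: the difference between endosulfan 1 and 2 and control 2 alone, and the difference from a fit that holds the spike-in level. The part of this array quality measure in the differences was otherwise not tested.

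The differences of the transporters did not share one direction. SLC38A1, SLC7A1, SLC7A6 and SLC38A2 were lower in endosulfan arrays on the probe set that stands for the gene, the one with the highest mean level, by 1.76-fold to 2.48-fold. SLC38A1, SLC7A1, SLC7A6 and SLC38A2 each also had a probe set with a positive log2 difference, the largest being 0.19 on SLC38A1. In level, those of SLC38A1, SLC7A6 and SLC38A2 stood between the 21.6th and the 35.0th percentile of all probe sets. That of SLC7A1 stood at the 53.7th. SLC3A2 was slightly higher on all 7 of its probe sets, and SLC1A5 had log2 differences from -0.05 to 0.06 on its 3. The probe sets of SLC1A4, SLC6A9 and SLC7A5 went both ways as well. No difference passed the test: 0 of the 41 probe sets had an adjusted p below 0.05 with limma and Benjamini-Hochberg adjustment over all 49293 probe sets, where 4 passed, or 0.00811%. The adjusted p of the 41 lay between 0.215 and 0.965. At an unadjusted p below 0.05 with limma, 9 of the 41 were lower and 4 higher, against 9.21% and 6.3% of all probe sets. The groups did not overlap in 9 probe sets that were lower and 9 that were higher, against 9.24% and 11.5% of all. The median log2 difference was 0.03 over the 41 and 0.05 over all probe sets. With limma's array weights 13 of the 41 passed, as did 7101 of all probe sets, or 14.4%. Endosulfan 3 and control 3 then carried weights of 5.43 and 2.20 while each other array was below 1.

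**Figure D1:**
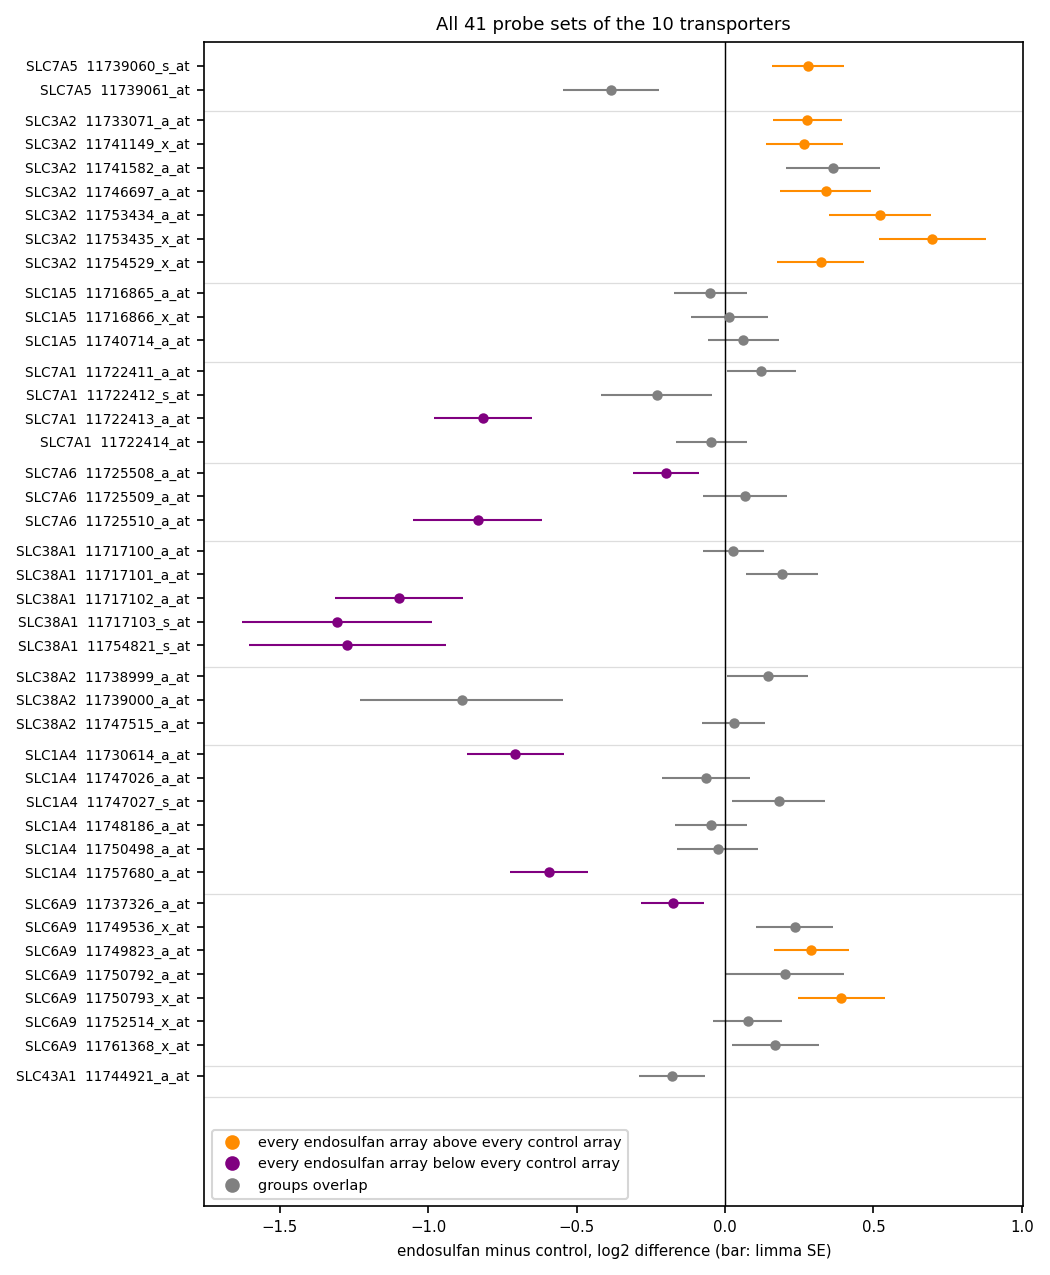
Log2 difference (endosulfan minus control) of each of the 41 probe sets on the x axis, grouped by gene, with limma's SE as bars. Colour marks whether the 3 endosulfan and 3 control arrays overlap. The 3 leftmost points, from -1.31 to -1.10, are probe sets of SLC38A1, all 7 of SLC3A2 lie right of 0, and 8 of the 10 genes have probe sets on both sides.

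SLC7A5, the catalytic chain of the heterodimer, has 2 probe sets, and they differed in opposite directions. Probe set 11739061_at, the one with probes unique to the gene, was at 8.22, 7.91 and 8.14 in endosulfan arrays, against 8.19, 8.47 and 8.75 in control arrays. Control 1 lay among the endosulfan arrays, so the groups overlapped, with a log2 difference of -0.38 ± 0.16 (SE) and a limma adjusted p of 0.315. With 1 array left out the difference ran from -0.52 without control replicate 1 to -0.24 without control replicate 3. Among the arrays of like spike-in level it was -0.41, and with the spike-in covariate -0.375. Probe set 11739060_s_at was at 7.31, 7.35 and 7.52 in endosulfan arrays, against 7.03, 7.30 and 7.01 in control arrays. All endosulfan arrays were higher there, endosulfan 1 barely above control 2, and the log2 difference was 0.28 ± 0.12 (SE) with a limma adjusted p of 0.323. Among the arrays of like spike-in level it was 0.03, and with the spike-in covariate also 0.03. Its name carries the letter s, and RefSeq lists the near copies SLC7A5P1 and SLC7A5P2 on the same chromosome, so what this probe set measures is uncertain.

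Within each array, the unique minus the shared probe set of SLC7A5 was 0.90, 0.56 and 0.62 in endosulfan arrays and 1.16, 1.17 and 1.74 in control arrays (log2). The groups did not overlap, and the difference between their means was -0.66, with a two-sided exact permutation p of 0.1, the smallest possible. The difference was -0.44 among the arrays of like spike-in level.

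SLC3A2, the heavy chain that carries SLC7A5 and SLC7A6 to the membrane, was higher on each of its 7 probe sets, by log2 differences from 0.27 to 0.70. On the brightest, 11754529_x_at, endosulfan arrays were at 9.25, 8.95 and 9.09 and control arrays at 8.51, 8.89 and 8.93. Every endosulfan array was above every control array, but endosulfan 2 by little. The log2 difference was 0.32 ± 0.15 (SE), a 1.25-fold difference, with a limma adjusted p of 0.339. The largest was on 11753435_x_at, at 6.70, 6.49 and 6.63 in endosulfan arrays, against 5.50, 6.19 and 6.04 in control arrays. There the log2 difference was 0.70 ± 0.18 (SE) with a limma adjusted p of 0.215. In 6 of the 7 probe sets the groups did not overlap, and 3 had an unadjusted p below 0.05. The probe sets of a gene share its RNA and are not replicates. Control 1 was the lowest array on all 7, and without it the difference on the brightest was 0.19. Those on 11746697_a_at, 11741149_x_at and 11741582_a_at were then 0.19, 0.16 and 0.23, against 0.34, 0.27 and 0.36 over all arrays. Without control replicate 3 instead, the difference on the brightest was 0.40. The brightest and 11753435_x_at both carry the letter x, and the largest difference without s or x was 0.52, on 11753434_a_at. Among the arrays of like spike-in level the 7 differences were 0.15 to 0.41, and with the spike-in covariate 0.17 to 0.45.

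The light chain and the heavy chain were set against each other within arrays. SLC7A5 on its unique probe set minus SLC3A2 on its brightest was -1.03, -1.05 and -0.95 in endosulfan arrays, against -0.31, -0.42 and -0.17 in control arrays (log2). The groups stood apart by more than their spread, with a difference of -0.71 and a two-sided exact permutation p of 0.1, again the smallest possible. With the shared SLC7A5 probe set in its place, the same quantity was -1.93, -1.60 and -1.57 in endosulfan arrays and -1.47, -1.59 and -1.92 in control arrays. Here the groups overlapped fully, with a difference of -0.04 and a two-sided exact permutation p of 0.7. Arrays of like spike-in level gave -0.62 with the unique and -0.18 with the shared probe set. Adjusted by Benjamini-Hochberg over these 3 within-array comparisons, the exact permutation p were 0.15 for both comparisons of the unique probe set and 0.7 for the last. These comparisons were not among the planned tests. They reuse values given above, where the unique probe set was lower and the shared one and SLC3A2 were higher. Groups that stand apart here are thus no further evidence of a difference.

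SLC43A1 (LAT3), a transporter of large neutral amino acids that works without a heavy chain, has 1 probe set. It was at 5.41, 5.19 and 5.34 in endosulfan arrays, against 5.38, 5.52 and 5.57 in control arrays. Control 1 lay within the endosulfan range, and the log2 difference was -0.18 ± 0.11 (SE), with a 95% confidence interval from -0.43 to 0.08 and a limma adjusted p of 0.462. With 1 array left out it ran from -0.23 to -0.12, the latter without endosulfan replicate 2.

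**Figure D2:**
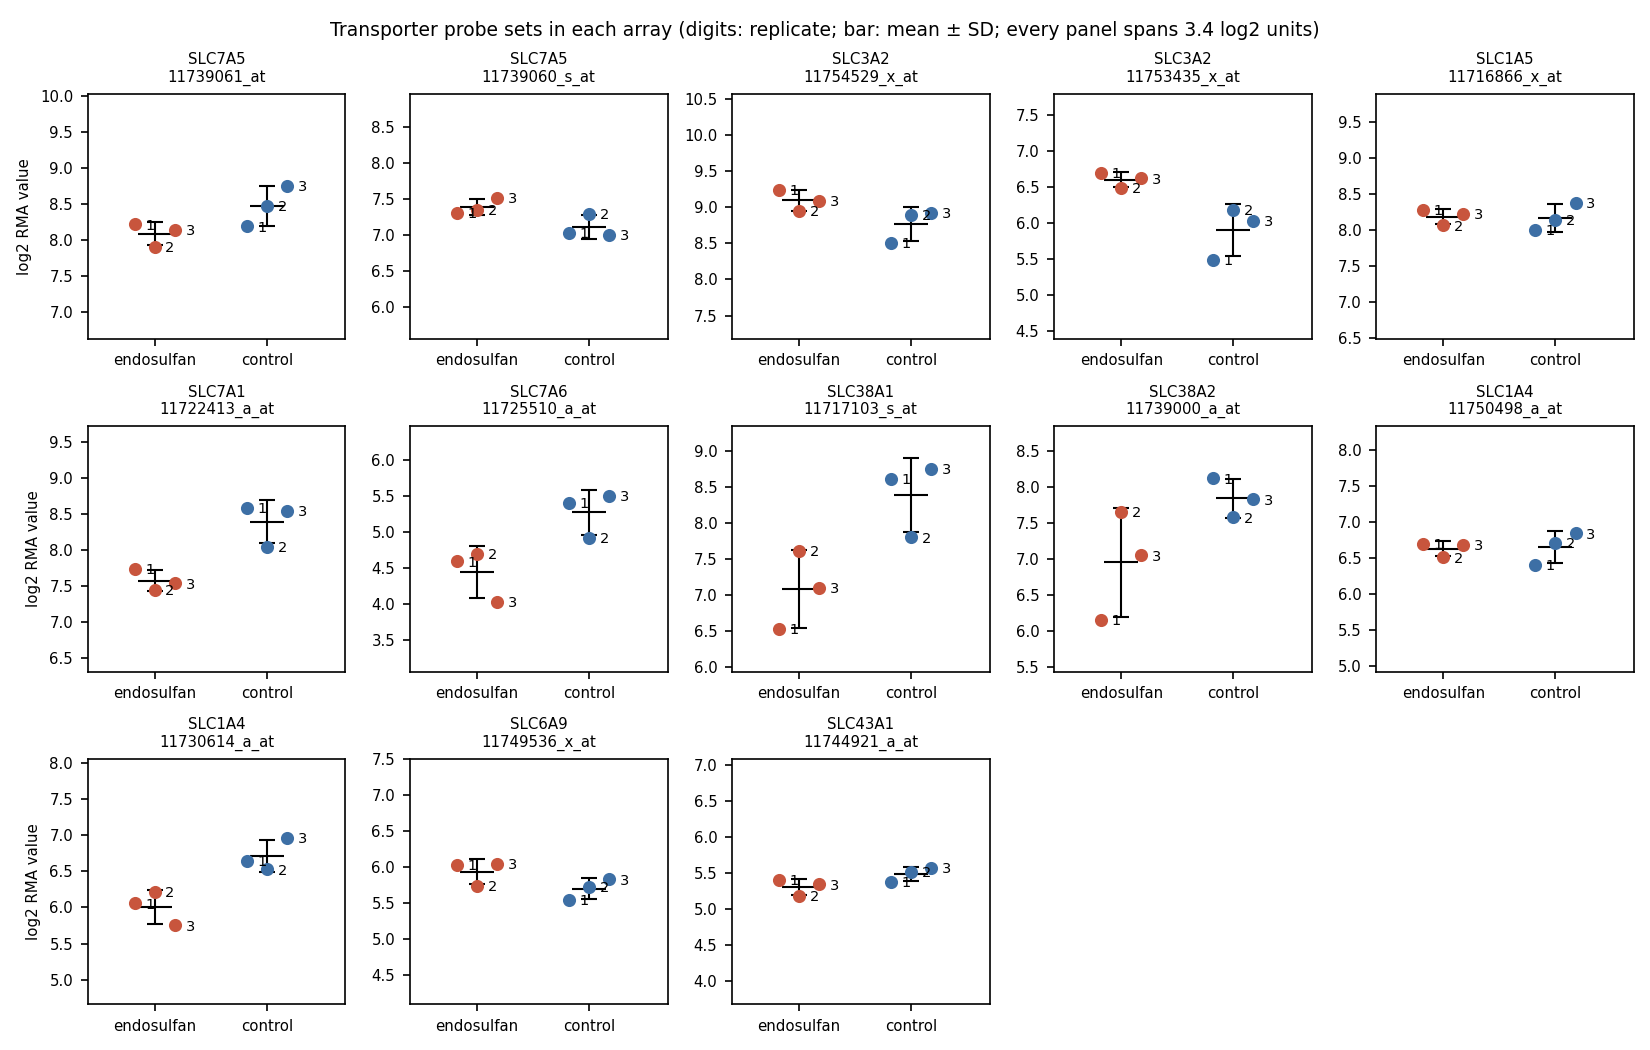
Log2 RMA values of 13 probe sets, the brightest for each of the 10 genes and a second one for SLC7A5, SLC3A2 and SLC1A4, with endosulfan arrays on the left and control arrays on the right of each panel and the same span of values in every panel. Digits give the replicate and bars the mean ± SD (n = 3). SLC38A1, SLC7A1, SLC7A6 and the second probe set of SLC1A4 show groups that do not overlap and are lower with endosulfan, and in SLC38A2 endosulfan 2 lies among the control arrays.

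SLC38A1 (SNAT1), which concentrates glutamine in neurons, gave the largest differences. Probe set 11717103_s_at was at 6.53, 7.62 and 7.10 in endosulfan arrays, against 8.62, 7.80 and 8.75 in control arrays. Every endosulfan array was lower, with endosulfan 2 and control 2 the closest. The log2 difference was -1.31 ± 0.32 (SE), a 2.48-fold lower level, with a limma adjusted p of 0.215. Probe set 11754821_s_at was at 5.21, 6.43 and 5.99 in endosulfan arrays and at 7.52, 6.63 and 7.31 in control arrays. Probe set 11717102_a_at was at 3.13, 3.66 and 3.18 in endosulfan arrays and at 4.80, 4.05 and 4.42 in control arrays. In both, all endosulfan arrays were again lower, with log2 differences of -1.27 and -1.10 and limma adjusted p of 0.215 each. The first 2 carry the letter s, and the third does not. The other 2 probe sets, 11717100_a_at and 11717101_a_at, had log2 differences of 0.03 and 0.19. The second was 0.11 without endosulfan replicate 3, 0.25 without control replicate 2 and -0.02 among the arrays of like spike-in level. In level, 11717100_a_at stood at the 35.0th and 11717101_a_at at the 21.6th percentile of all probe sets. Of those that were lower, 11717102_a_at stood at the 30.6th, 11754821_s_at at the 73.5th and 11717103_s_at at the 84.6th. Whether the level has a part in this split was not tested. Among the arrays of like spike-in level, the 3 probe sets that were lower differed by -0.73, -0.80 and -0.65 in the order given. With the spike-in covariate they differed by -0.71, -0.82 and -0.67.

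SLC38A2 (SNAT2), which many cells induce when amino acids run short, was lower on the brightest of its 3 probe sets and level on the other 2. Probe set 11739000_a_at was at 6.15, 7.65 and 7.05 in endosulfan arrays, against 8.12, 7.57 and 7.82 in control arrays. Endosulfan 2 lay above control 2, so the groups overlapped. The log2 difference was -0.89 ± 0.34 (SE) with a limma adjusted p of 0.289. With 1 array left out it ran from -1.24 without endosulfan replicate 2 to -0.49 without endosulfan replicate 1. The other 2 probe sets differed by 0.14 and 0.03. They stood at the 29.8th and 22.1th percentile of all probe sets in level, against the 81.9th for the brightest. Whether the level has a part in this was not tested. SLC38A1 and SLC38A2 are neighbours on chromosome 12, with 0 protein-coding genes annotated between them.

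SLC1A5 (ASCT2), the sodium-dependent glutamine exchanger, showed no detectable difference on any of 3 probe sets. Probe set 11716866_x_at was at 8.27, 8.06 and 8.22 in endosulfan arrays, against 8.00, 8.13 and 8.38 in control arrays. The endosulfan arrays lay inside the control range, with a log2 difference of 0.02 ± 0.13 (SE) and a 95% confidence interval from -0.28 to 0.32. The other 2 differed by -0.05 and 0.06, with limma adjusted p of 0.869 and 0.825.

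SLC1A4 (ASCT1), which exchanges serine, alanine and threonine, has 6 probe sets that split. Probe set 11730614_a_at was at 6.06, 6.21 and 5.75 in endosulfan arrays, against 6.65, 6.53 and 6.96 in control arrays. Probe set 11757680_a_at was at 5.69, 5.56 and 5.51 in endosulfan arrays, against 6.12, 6.00 and 6.41 in control arrays. Both were lower in every endosulfan array, by log2 differences of -0.71 ± 0.16 (SE) and -0.59 ± 0.13 (SE), with limma adjusted p of 0.215 each. The 4 others, among them the brightest, 11750498_a_at, overlapped between the groups and differed by -0.06 to 0.18. Among the arrays of like spike-in level the 2 lower probe sets differed by -0.39 and -0.38, and with the spike-in covariate by -0.35 and -0.36.

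SLC7A1 (CAT1), the main carrier of arginine and lysine in most cells, was lower on the brightest of its 4 probe sets. Probe set 11722413_a_at was at 7.74, 7.45 and 7.54 in endosulfan arrays, against 8.58, 8.05 and 8.55 in control arrays. Every endosulfan array was lower, with endosulfan 1 and control 2 the closest. The log2 difference was -0.82 ± 0.17 (SE), a 1.76-fold lower level, with a limma adjusted p of 0.215. The other 3 overlapped between the groups, with log2 differences of -0.23 on 11722412_s_at, 0.12 on 11722411_a_at and -0.05 on 11722414_at. With 1 array left out, 11722412_s_at ranged from -0.41 without endosulfan replicate 3 to -0.07 without endosulfan replicate 2. Among the arrays of like spike-in level 11722413_a_at differed by -0.45 and 11722412_s_at by -0.60. With the spike-in covariate they differed by -0.47 and -0.64.

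SLC7A6 (y+LAT2), which pairs with SLC3A2 and exports arginine for glutamine, was lower on 11725510_a_at, at 4.59, 4.70 and 4.03 in endosulfan arrays, against 5.40, 4.91 and 5.50 in control arrays. Every endosulfan array was lower, endosulfan 2 and control 2 being the closest. The log2 difference was -0.83 ± 0.22 (SE), with a limma adjusted p of 0.215, but -0.27 among the arrays of like spike-in level and -0.24 with the spike-in covariate. Probe set 11725508_a_at also had groups that did not overlap, with a log2 difference of -0.20. The third, 11725509_a_at, differed by 0.07. In level, 11725508_a_at and 11725509_a_at stood at the 29.5th and 30.6th percentile of all probe sets, against the 48.8th for 11725510_a_at.

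SLC6A9 (GLYT1), the sodium- and chloride-dependent glycine transporter, has 7 probe sets, of which 6 had positive log2 differences, up to 0.39. The largest was on 11750793_x_at, at 5.18, 4.84 and 4.78 in endosulfan arrays, against 4.36, 4.54 and 4.72 in control arrays. The groups did not overlap, with a log2 difference of 0.39 ± 0.15 (SE) and a limma adjusted p of 0.280. Among the arrays of like spike-in level it was 0.47, and with the spike-in covariate 0.50. Probe set 11749823_a_at was likewise higher in every endosulfan array, by 0.29, but by 0.17 among the arrays of like spike-in level. With 1 array left out it ran from 0.18 without control replicate 1 to 0.37 without control replicate 2. Probe set 11737326_a_at went the other way, at 5.60, 5.62 and 5.61 in endosulfan arrays, against 5.63, 5.86 and 5.87 in control arrays. Its 3 endosulfan arrays were nearly identical and all lower, with a log2 difference of -0.18 ± 0.11 (SE) and a limma adjusted p of 0.453. The brightest, 11749536_x_at, overlapped between the groups, with a log2 difference of 0.23 over all arrays and 0.16 among those of like spike-in level.

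**Figure D3:**
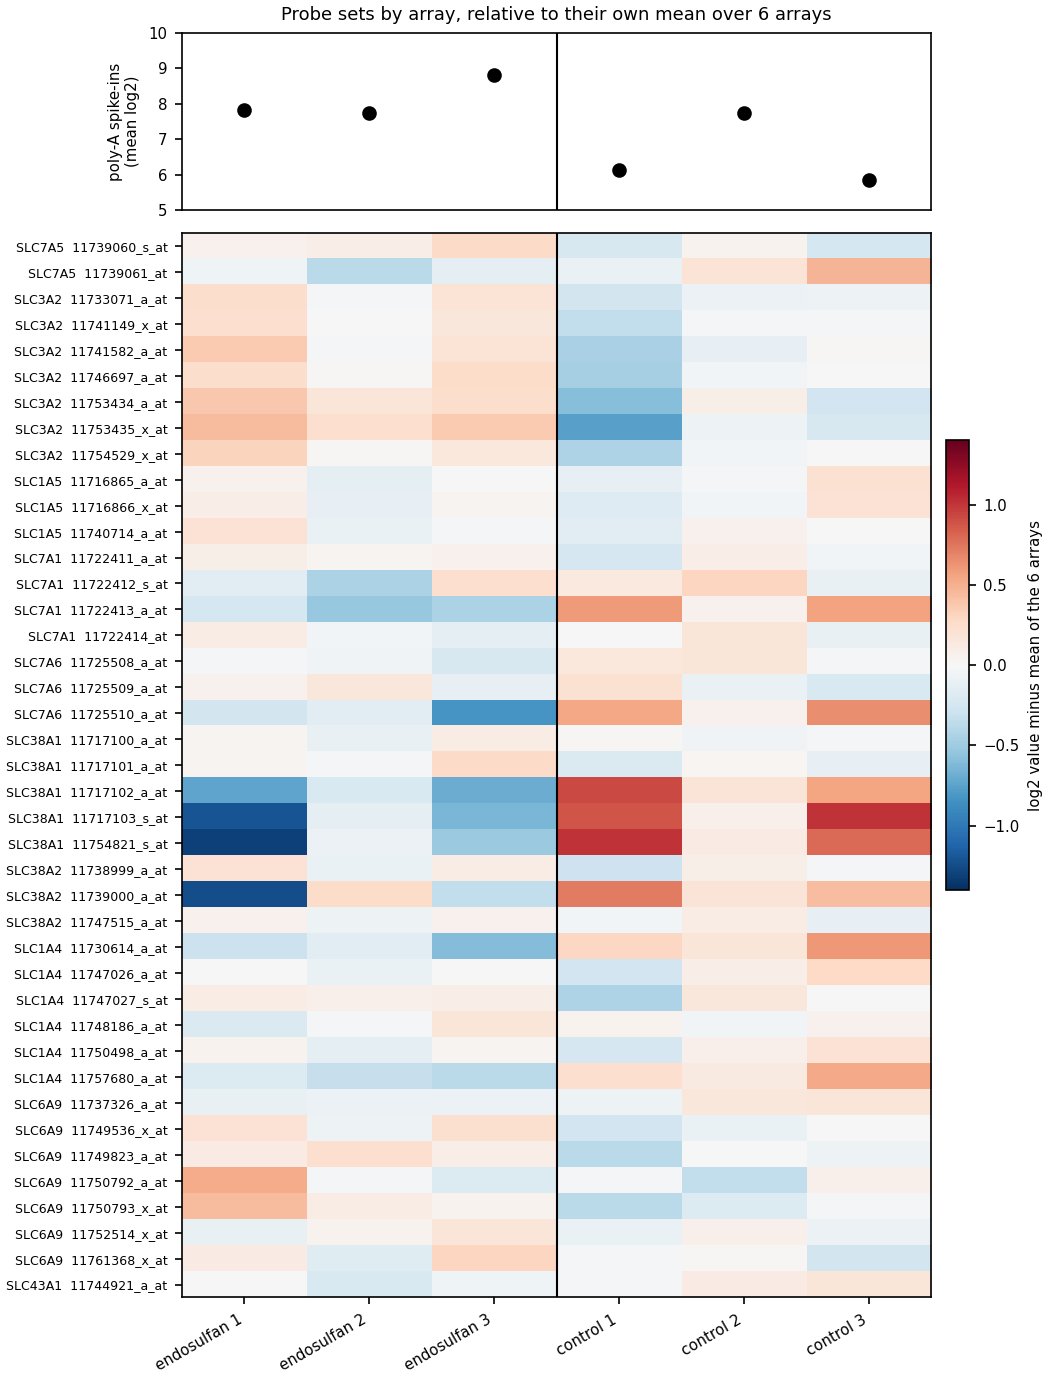
Upper panel: mean log2 level of the poly-A spike-ins in each array. Lower panel: each of the 41 probe sets in the 6 arrays, endosulfan left and control right of the line, as log2 value minus its own mean over the arrays. Endosulfan 2 and control 2, with spike-in levels of 7.73 each, are pale in most probe sets. The strongest colours lie in the other 4 arrays, among them endosulfan 1, whose spike-in level of 7.81 is similar.

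The size of many differences depended on which arrays were compared. Of the 41 probe sets, 18 moved by more than 1 within-group SD when endosulfan 1 and 2 were set against control 2 alone. That choice of arrays was made after their spike-in levels were known and leaves 1 control array. A difference between so few arrays varies more in any probe set. The moves were not counted over all probe sets, so the 18 describe no trait of the transporters. With endosulfan 1 and 2 against control 2, the 4 lowest values were those of the 3 SLC38A1 probe sets and of SLC38A2, at -0.67 on 11739000_a_at. SLC6A9 on 11750792_a_at was at 0.59 there, against 0.20 over all arrays. In the fit that holds the spike-in level, 0 of the 41 passed with limma, as did 0 of all 49293 probe sets. Of the 41, 2 had an unadjusted p below 0.05 there, a count that was not made over all probe sets.

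**Figure D4:**
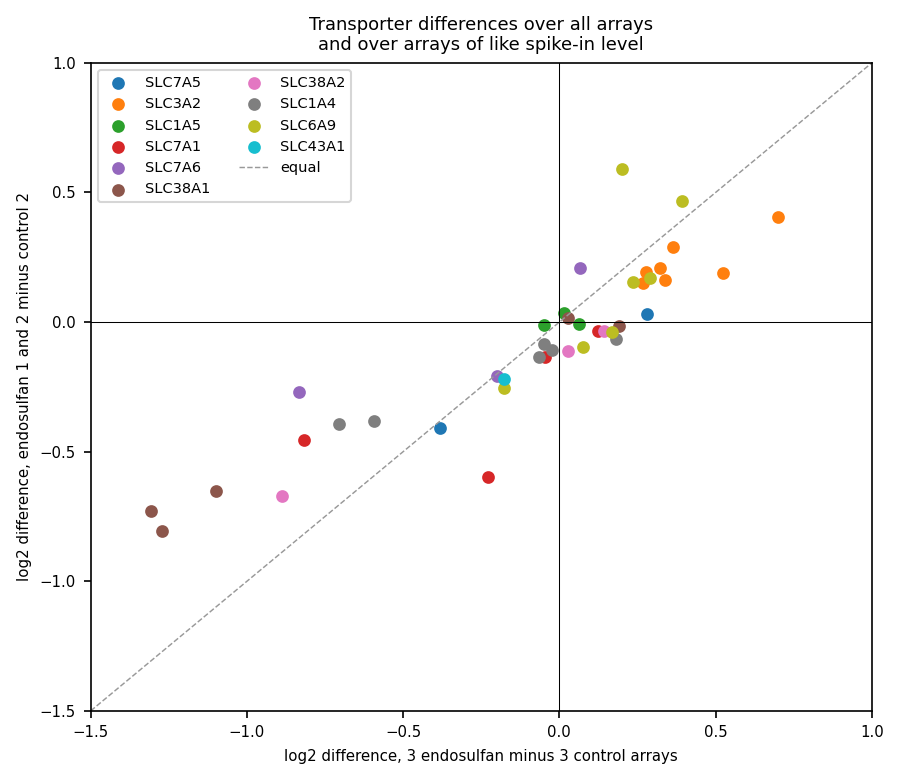
Log2 difference over all 6 arrays on the x axis against the difference between endosulfan 1 and 2 and control 2 on the y axis, 1 point for each of the 41 probe sets, coloured by gene. The axes share 3 arrays, so the points are not independent. SLC38A1 at -1.31 on the x axis is at -0.73 on the y axis, and most points with large negative values lie above the dashed line of equality.

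At gene level, with 1 probe set a gene, 7 of the 10 log2 differences were negative and their median was -0.28, against a median of 0.05 over all 18132 genes. None passed with limma and Benjamini-Hochberg adjustment, where 0.00552% of all genes did, and the adjusted p of the 10 lay between 0.196 and 0.962. Lower at an unadjusted p below 0.05 were 4 of the 10, SLC38A1, SLC7A1, SLC7A6 and SLC38A2, against 10.5% of all genes. The groups did not overlap in 3 that were lower and in SLC3A2, which was higher, against 10.2% and 12.4% of all genes. The 5 genes with TGATGNAA in a promoter window ran from -1.31 (SLC38A1) to 0.32 (SLC3A2) and the 5 without it from -0.89 (SLC38A2) to 0.23 (SLC6A9). SLC1A4, which holds the motif, entered at -0.02, the value of its brightest probe set. Sites outside the windows were not searched for, and whether the motif goes with the differences was not tested. ATF4 itself was at 10.68, 10.53 and 10.79 in endosulfan arrays, against 11.39, 11.57 and 11.53 in control arrays, all endosulfan arrays lower. Its log2 difference was -0.83 ± 0.12 (SE), with a limma adjusted p of 0.196, on a probe set that carries the letter x. It was -0.96 both among the arrays of like spike-in level and with the spike-in covariate. MYCN was at 8.65, 8.51 and 8.54 in endosulfan arrays, against 9.10, 9.08 and 8.94 in control arrays. All endosulfan arrays were lower there too. The log2 difference of MYCN was -0.48 ± 0.11 (SE), with a limma adjusted p of 0.196. Among the arrays of like spike-in level it was -0.50, and with the spike-in covariate -0.51.

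Other amino acid transporters and the amino acid sensing genes gave the surroundings of the 10. Of 33 other transporters, all measured, 22 had positive and 11 negative log2 differences, with a median of 0.07. None passed with limma, and 2 were higher and 1 lower at an unadjusted p below 0.05, against 6.64% and 10.5% of all genes. The 4 with the smallest p were SLC6A15, a neutral amino acid transporter of neurons, at -0.51, SLC16A10, an aromatic amino acid transporter, at 0.45, the glutamate transporter SLC1A7 at 0.33, and SLC3A1, the heavy chain of the cystine transporter, at 0.32. Over the arrays of like spike-in level SLC6A15 differed by -0.19, SLC16A10 by 0.39, SLC1A7 by 0.14 and SLC3A1 by 0.09. With 1 array left out, SLC1A7 ran from 0.19 without control replicate 1 to 0.40 without control replicate 2. SLC3A1 ran from 0.19 without endosulfan replicate 3 to 0.39 without endosulfan replicate 2. SLC7A11, the cystine and glutamate exchanger, differed by 0.06 with a limma adjusted p of 0.803. With 1 array left out it ran from 0.0062 without endosulfan replicate 1 to 0.11 without control replicate 3.

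Of 36 listed genes that sense amino acids for mTORC1 and GCN2, 34 were measured, with 15 positive and 19 negative log2 differences and a median of -0.05. None passed with limma, and 3 were higher and 8 lower at an unadjusted p below 0.05, against the same 6.64% and 10.5% of all genes. WDR59, a subunit of the GATOR2 complex, differed by -0.41, the kinase MTOR by -0.91, the GTPase regulator FLCN by 0.65 and SESN1, of the sestrin family, by -1.00. With only the arrays of like spike-in level these were -0.34 for WDR59, -0.39 for MTOR, 0.31 for FLCN and -0.51 for SESN1. Without control replicate 1, FLCN was at 0.42 and SESN1 at -0.58, and without control replicate 2 they were at 0.82 and -1.22. MTOR was at 6.02, 6.76 and 6.01 in endosulfan arrays, against 7.62, 6.78 and 7.12 in control arrays. Every endosulfan array was lower there, with endosulfan 2 and control 2 nearly level. The same 2 arrays were the closest on 11717103_s_at of SLC38A1, but further apart, at 7.62 and 7.80.

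**Figure D5:**
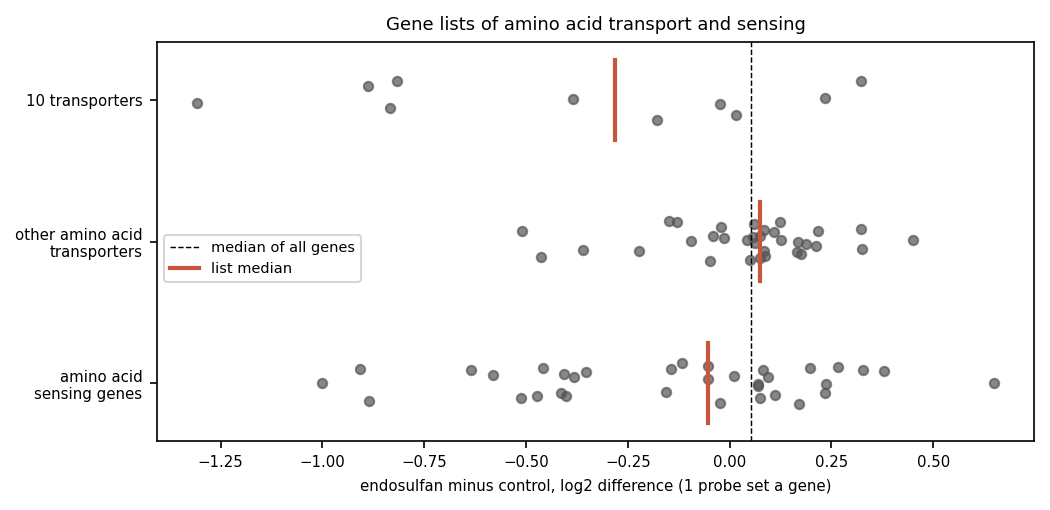
Log2 difference (endosulfan minus control) at gene level for the 10 transporters, 33 other amino acid transporters and 34 amino acid sensing genes, 1 point a gene, with list medians as bars. The dashed line is the median of all genes at 0.05. The medians are -0.28, 0.07 and -0.05, and the lowest point of the 10 transporters is SLC38A1 at -1.31.

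The genes whose pattern over the 6 arrays was nearest to SLC7A5, by root mean square distance of values centred on each gene's mean, were CNR2, ISLR2 and PDRG1, at distances of 0.079 to 0.10. Those nearest to SLC3A2 were GRK6P1, KRTAP6-2 and CCDC24, at distances of 0.030 to 0.033. With 6 arrays and many genes, near patterns are a description of these arrays.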

How the data were processed

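Total RNA of 6 SH-SY5Y samples was hybridised to 6 arrays. The authors deposited log2 values for 49395 probe sets, made with Affymetrix Expression Console and RMA per the submitters' processing notes. The sources used here give no versions, options or genome build. Scanner intensities were not used, so no call above background was made, and for arrays their number limits the precision. RMA removes a shift shared by most transcripts. The 102 control probe sets were set aside. The platform annotation named 1 gene for 44988 probe sets, several for 1832 and none for 2473, and symbol and gene ID of all 10 transporters matched the RefSeq table of GRCh38.p14. Groups came from the agent label and replicate numbers from the titles. The test was limma 3.58.1 (lmFit, eBayes) in R 4.3.3 on all 6 arrays, two-sided, with Benjamini-Hochberg adjustment over all probe sets or, with the brightest one-gene probe set of each, all genes, and a threshold of 0.05. Differences are endosulfan minus control. Named are all 10 transporters with every probe set, ATF4 and MYCN, the 4 genes of smallest p in each other list, and the 3 nearest genes to SLC7A5 and to SLC3A2, the 2 chains of the heterodimer. SLC7A11 was named after its values were seen. Tested on simulated data for this comparison over 49293 probe sets, the fit recovered 18%, 54%, 92% and 96% of probe sets changed by 0.585, 1, 2 and 3 on the log2 scale, with 9 false calls among 139. At gene level, over 18132 genes, the shares were 28%, 70%, 92% and 100%, and 11 of 156 calls were false. The simulated errors were independent between features and had the same spread in every array. Deviations that real arrays share are not in them, so these shares need not hold for the data. The members, lists and alternatives were chosen with earlier results of these data known. Alternatives were the replicate block, repeated quantile normalization, median centring, probe sets above the median level, trend with robust moderation, array weights, the spike-in covariate, averaging each gene's probe sets and leaving out each array. Figures used matplotlib 3.10.9 in Python 3.11.15.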

Additional observations from a re-analysis of the deposited data

How the results depend on the processing

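None of the 10 transporters, on any of the 41 probe sets or at gene level, and none of the genes of both other lists passed under any alternative except array weights. With array weights, whose estimate stopped before it converged, 13 probe sets and 6 genes of the 10 transporters, 8 of 33 other amino acid transporters and 17 of 34 amino acid sensing genes passed, as did 14.4% of all probe sets and 32.6% of all genes (5915). ATF4, MYCN and the 8 genes named from both lists passed too, and SLC7A11 was at -0.0256. The count at an unadjusted p below 0.05, 13 probe sets, ranged from 2 (spike-in covariate) to 23 (array weights). That count was not made over all probe sets under the alternatives, so the range describes no trait of the transporters. Over all probe sets the 4 calls became 0 with the replicate block, 0 with the spike-in covariate and 0 to 7 with 1 array left out. The replicate block changed no call of the 41, and none reversed. Deviations from the group means correlated at -0.51, -0.40 and 0.05 between arrays of the same number, so the numbers were not taken as pairs. Differences that changed sign lay between -0.23 and 0.20 in the reported comparison. With array weights these were SLC1A5 at -0.0655 (11716866_x_at) and -0.0007 (11740714_a_at), SLC7A1 at 0.13 (11722412_s_at), SLC1A4 at 0.0837 (11748186_a_at) and SLC6A9 at -0.0772 (11750792_a_at). With the spike-in covariate they were SLC1A5 at 0.0067 (11716865_a_at), SLC7A1 at -0.0171 (11722411_a_at), SLC38A1 at -0.0201 (11717101_a_at), SLC38A2 at -0.0167 (11738999_a_at) and -0.12 (11747515_a_at), SLC1A4 at -0.022 (11747027_s_at) and SLC6A9 at -0.098 (11752514_x_at) and -0.0767 (11761368_x_at). With repeated quantile normalization they were SLC38A2 at -0.0024 (11747515_a_at) and SLC1A4 at 0.047 (11750498_a_at). With 1 array left out the ranges that crossed 0 were, for SLC1A5, -0.12 to 0.046 (11716865_a_at), -0.0713 to 0.12 (11716866_x_at) and -0.0239 to 0.12 (11740714_a_at), for SLC7A1 -0.11 to 0.0261 (11722414_at), for SLC7A6 -0.0236 to 0.19 (11725509_a_at), for SLC38A1 -0.0163 to 0.0866 (11717100_a_at), for SLC38A2 -0.0201 to 0.0898 (11747515_a_at), for SLC1A4 -0.22 to 0.0602 (11747026_a_at), -0.14 to 0.0437 (11748186_a_at) and -0.15 to 0.0705 (11750498_a_at), and for SLC6A9 -0.0062 to 0.35 (11750792_a_at). The cause of these changes was not tested.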

Other observations

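Of the 28 transporter probe sets above the median level of all probe sets, 16 had log2 differences within 0.3 of 0, and the groups did not overlap in 6 that were lower and 7 that were higher with endosulfan. Over all probe sets of that level the shares were 65.8% within 0.3 of 0, 12.8% without overlap and lower and 12.5% without overlap and higher. Of the 13 below the median level, 10 were within 0.3 of 0, and the groups did not overlap in 3 that were lower and 2 that were higher. Over all probe sets of that level the shares were 90.3%, 5.64% and 10.5%. Whether the transporters differed from other probe sets at either level was not tested.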
